A study of Mus musculus with 123 samples.

Results

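The 16 inner cell masses (ICMs) described here are the late ICMs of the Oct4 line whose mothers had either lost or kept Oct4 (gene symbol Pou5f1). They were chosen by their sample names as 8 Ctrl and 8 MWT late ICMs of the 123 single-embryo RNA libraries of the series. The 8 Ctrl embryos came from Pou5f1 flox/flox; Zp3-Cre mothers, in which Cre driven by the oocyte promoter Zp3 deletes the floxed allele in the egg, and from Pou5f1 +/mKO2 fathers. They inherited a deleted maternal allele and 1 intact paternal allele (Pou5f1 +/Δ), so maternal Oct4 was absent while the embryo could make its own. The 8 MWT embryos came from mothers with floxed Pou5f1 and no Cre, whose Oct4 was intact. Per the study's genotype key the MWT late ICMs are a mixture of Pou5f1 flox/mKO2 embryos, with 1 intact allele, and +/flox embryos, with 2. The labels do not say which MWT embryo is which, so maternal Oct4 and the number of intact zygotic alleles cannot be told apart in this comparison. All 16 share the B6C3F1 background label, superovulated mothers, culture from the morula stage in KSOM medium with the MEK inhibitor PD0325901, which blocks the FGF-ERK pathway, and isolation of the ICM by immunosurgery. The source names give E4.5 for all 8 Ctrl and E3.75 for all 8 MWT embryos, although every title says late ICM. The labelled day therefore cannot be told apart from maternal Oct4 either. No age of the mothers is given, and each library is 1 ICM.

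Oct4 is a POU-domain transcription factor that is deposited in the egg and made again by the embryo, and together with Sox2 it sustains the pluripotent cells of the ICM. The ICM divides into epiblast, which keeps Oct4, Sox2 and Nanog, and primitive endoderm, which turns on Gata6, Gata4 and Sox17 under FGF-ERK signalling. MEK inhibition in culture is used to hold that second fate back, so these ICMs were meant to be largely epiblast. Maternal-null embryos served as the study's controls for embryos without any Oct4, and the comparison with MWT embryos asks how much of the late ICM transcriptome moves with the loss of the maternal protein.

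Few genes differed between late ICMs without and with maternal Oct4. None of 17 naive pluripotency factors tested was among them, which is near the share called over all genes. Of 13,923 genes tested, 73 were higher in Ctrl (0.524%) and 38 were lower (0.273%), 111 in all (0.797%). A gene was called at an adjusted p under 0.05 and at least a 2-fold difference (log2 fold change of 1 or more, always Ctrl minus MWT) in edgeR, and levels are counts of unique transcripts (UMIs) scaled to 1,000,000 UMIs an embryo (CPM). The largest difference by far in p was that of Cchcr1, a gene beside Pou5f1. Of the lists examined, chosen with earlier results known, 7 of 25 primitive endoderm genes and 3 of 18 FGF-ERK genes were higher in Ctrl. Without the 3 Ctrl embryos highest in Sox17, Gata4 and Foxq1 the 7 became 0 and the 3 became 2. That choice was made on primitive endoderm genes and leaves fewer Ctrl embryos, so it was bound to lower those calls. Hand1, Castor1, Smad3 and Hspa1b were lower. At an unadjusted p under 0.05, 1939 genes differed, and the median log2 fold change over all genes tested was -0.01. When only these 16 embryos were fitted, without the spread of the other groups, 37 genes were called, all of them among the 111.

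The libraries of both groups were similar in depth. Totals ran from 525,755 to 747,472 UMIs in Ctrl and from 562,308 to 894,465 in MWT, so 1 CPM stands for less than 1 UMI in each embryo. Between 12,411 and 13,797 genes were detected, and mitochondrial UMIs made up 5.58% ± 1.17 in Ctrl and 5.74% ± 0.929 in MWT (mean ± SD, n = 8 each; exact two-sided permutation p = 0.776). UMIs of 82 ribosomal protein genes took 18.6% ± 1.9 in Ctrl and 16.6% ± 0.956 in MWT (exact two-sided permutation p = 0.0166, adjusted over 4 library properties p = 0.0665). Y-linked genes summed to 10 UMIs or more in 5 Ctrl and 3 MWT embryos, so the sexes were not equally divided. The Ctrl embryos carry 2 sets of numbers in their labels, 5 in the first set and 3 in the second, and MWT embryos carry none, so a set effect cannot be looked for in MWT. Ctrl 1-3, 1-9 and 2-9 had the highest levels of Sox17, Gata4 and Foxq1, and calls that were lost without these 3 are given with and without them, a choice made after their values were seen. These are bulk samples, in which fewer cells of a type and less RNA per cell cannot be told apart.

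The stage label of the MWT embryos was examined first, because their titles say late ICM while their source names give E3.75, the day of early ICMs, and those of the Ctrl embryos give E4.5. Genes called between early and late Ctrl ICMs of the Sox2 line, none of whose embryos are compared here, were used as a ruler: 275 rose (1.98% of the genes tested) and 121 fell (0.869%). The mean log2(CPM + 1) of the risers minus that of the fallers had a lowest value, median and highest value of -1.14, 0.37 and 1.59 in the 8 MWT late ICMs, and of -0.37, 0.46 and 1.2 in the 8 Ctrl late ICMs. The MWT early ICMs have the same kind of mismatch, with E2.75, the day of morulae, in their source names against E3.75 for Ctrl early ICMs, so all early values of MWT rest on the titles too. Early ICMs of the same line had -2.58, -1.92 and -0.99 in 5 MWT embryos and -2.54, -2.02 and -0.66 in 8 Ctrl embryos. By this score the MWT late ICMs lay with the Ctrl late ICMs, and the title was used. However, 1 embryo, MWT 20 at -1.14, lay within the range of the early ICMs. The score takes many genes together and does not settle the day of the embryos.

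**Figure D1:**
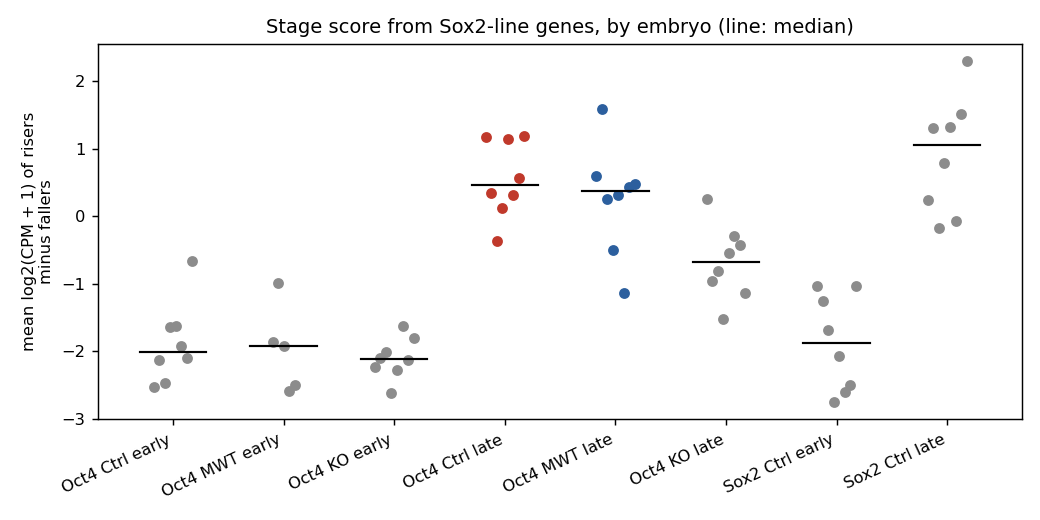
The stage score of each ICM, the mean log2(CPM + 1) of 275 genes that rose minus that of 121 genes that fell between early and late ICMs of the Sox2 line, by group with the median as a line. Ctrl late (red, median 0.46) and MWT late (blue, median 0.37) embryos overlap over most of their range, and their medians lie above those of the early ICMs, between -2.12 and -1.88.

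Among the genes of that ruler, 11 of the 275 risers were called higher in Ctrl than MWT late ICMs (4%) and 1 lower (0.364%). Over all genes 0.524% were called higher and 0.273% lower. The median log2 fold change of the risers was 0.06. None of the 121 fallers was called in edgeR, with 8 higher and 14 lower at an unadjusted p under 0.05, and their median was -0.26. DESeq2 called 1 of them higher and 3 lower. Of the fallers 33.9% had a positive log2 fold change, against 48% of all genes tested, whose median was -0.01. The 11 include the primitive endoderm genes Foxq1, Gata4, Lama1 and Serpinh1, and Egr1.

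Pou5f1 itself (ENSMUSG00000024406, mm10 chromosome 17, 35506018 to 35510772, plus strand, with the antisense gene Gm19553 over it) was present in every one of the 16 ICMs. The 8 Ctrl embryos had 23.4, 43.8 and 61.6 CPM as lowest, median and highest value, and the 8 MWT embryos had 22.6, 51.4 and 96.1. The groups overlapped over the whole Ctrl range, and all 3 values above it belonged to MWT embryos 11, 14 and 19. The log2 fold change was -0.32 ± 0.23 (SE, adjusted p = 0.583), with an interval of 2 SE from -0.79 to 0.14, and the exact two-sided permutation test of the mean CPM (43.8 against 58.9, n = 8 each) gave p = 0.147. The fold change stayed between -0.65 and -0.16 under every alternative and was called in none. In Oct4-KO late ICMs 1 UMI of Pou5f1 was found in 8 embryos, against 236 in Ctrl and 306 in MWT.

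None of 17 naive pluripotency transcription factors tested was called by edgeR or by DESeq2. As edgeR called 0.797% of all genes, the lack of a call among so few says little about them. At an unadjusted p under 0.05 edgeR found 2 higher and 2 lower, 7 had a positive log2 fold change, and the median was -0.10. Sox2, the partner of Oct4 on composite DNA sites, was at 130, 324 and 459 CPM in Ctrl and 215, 548 and 673 in MWT (lowest, median, highest), a log2 fold change of -0.54 ± 0.27 (SE, adjusted p = 0.355), and it lies within Sox2ot on the same strand. Nanog, which keeps the epiblast from becoming primitive endoderm, was at 729, 958 and 1430 CPM in Ctrl and 992, 1220 and 1570 in MWT (-0.19 ± 0.24, adjusted p = 0.801). These ranges overlapped, although 5 of 8 Ctrl embryos lay below the lowest MWT embryo in Nanog. Esrrb, Klf2, Klf4 and Tfcp2l1, further factors of the naive network, had log2 fold changes of -0.20, 0.02, -0.07 and 0.12, with adjusted p between 0.763 and 0.998. Prdm14, a repressor that guards the naive state, had the largest difference of the 17, at 26.7, 48.5 and 63.3 CPM in Ctrl and 51.1, 91.2 and 180 in MWT, with 5 of 8 Ctrl embryos below every MWT embryo (-0.94 ± 0.32, adjusted p = 0.108). Zfp42 and Tbx3, both markers of naive cells, had 0.41 and 0.40 (adjusted p 0.175 and 0.284). Fgf4, the ligand that epiblast cells send to neighbouring cells, was at 170 to 468 CPM in Ctrl and 233 to 850 in MWT (-0.73 ± 0.31, adjusted p = 0.229).

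Of 28 other pluripotency-associated genes, 2 were called, both higher in Ctrl, against 0.524% called higher over all genes, and the median was -0.02. Dnmt3l, a catalytically inactive partner of the de novo DNA methyltransferases, was at 28.4, 91.5 and 223 CPM in Ctrl and 19, 37.1 and 53.6 in MWT. Its log2 fold change was 1.62 ± 0.32 (SE, adjusted p = 0.00122), 7 of 8 Ctrl embryos lay above every MWT embryo, and it overlaps Aire on the other strand. It was the only called member of 29 Polycomb, DNA methylation and HDAC genes, whose median was -0.01. Its highest value was that of Ctrl 2-9, and without Ctrl 1-3, 1-9 and 2-9 it was 1.05 with an adjusted p of 0.152 and not called. L1td1, an RNA-binding protein of pluripotent cells, was higher by 1.08 ± 0.28 (adjusted p = 0.0243) with overlapping groups, and lost its call without any one of 8 embryos in turn and without those 3 (0.84, adjusted p = 0.218).

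The difference with the smallest p lay beside the targeted locus. Cchcr1 (ENSMUSG00000040312, chromosome 17, 35517100 to 35531015, plus strand), which encodes a coiled-coil protein, begins 11.1 kb downstream of the start of Pou5f1 on the same strand. The 8 Ctrl ICMs had 91.3, 129 and 142 CPM and the 8 MWT ICMs 1.73, 5.46 and 13.3 (lowest, median, highest). Every Ctrl embryo lay above every MWT embryo, with a log2 fold change of 4.24 ± 0.28 (SE, adjusted p = 1.69e-25), an 18.9-fold difference. Between 4.11 and 4.45 remained when each of the 16 embryos was left out in turn.

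Cchcr1 followed the Pou5f1 genotype of the mothers through the whole series. The 48 Ctrl and KO embryos of the Oct4 line, all with a maternal Pou5f1 allele that passed through Zp3-Cre, had 33.4 to 185 CPM, whereas the other 75 embryos, MWT embryos and the whole Sox2 line, had 1.11 to 23.1 CPM, with no overlap. In early ICMs the Ctrl mean was 113 ± 36.6 CPM (SD, n = 8) and the MWT mean 10.2 ± 5.07 (n = 5), a log2 fold change of 3.49 (adjusted p = 3.28e-17). The late minus early difference of the fold change was 0.75 (adjusted p = 0.682). Oct4-KO late ICMs, which also carry the deleted maternal allele, had 47.3 ± 15.1 CPM (n = 8). Because Cchcr1 was named for its difference between these same 16 late ICMs, it is no independent check of their maternal labels. The Ctrl and KO embryos of the Sox2 line, whose mothers also carried Zp3-Cre, were among the 75 at the lower level. The deletion at Pou5f1 and the loss of maternal Oct4 come together in every Ctrl embryo of the Oct4 line and cannot be told apart.

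**Figure D2:**
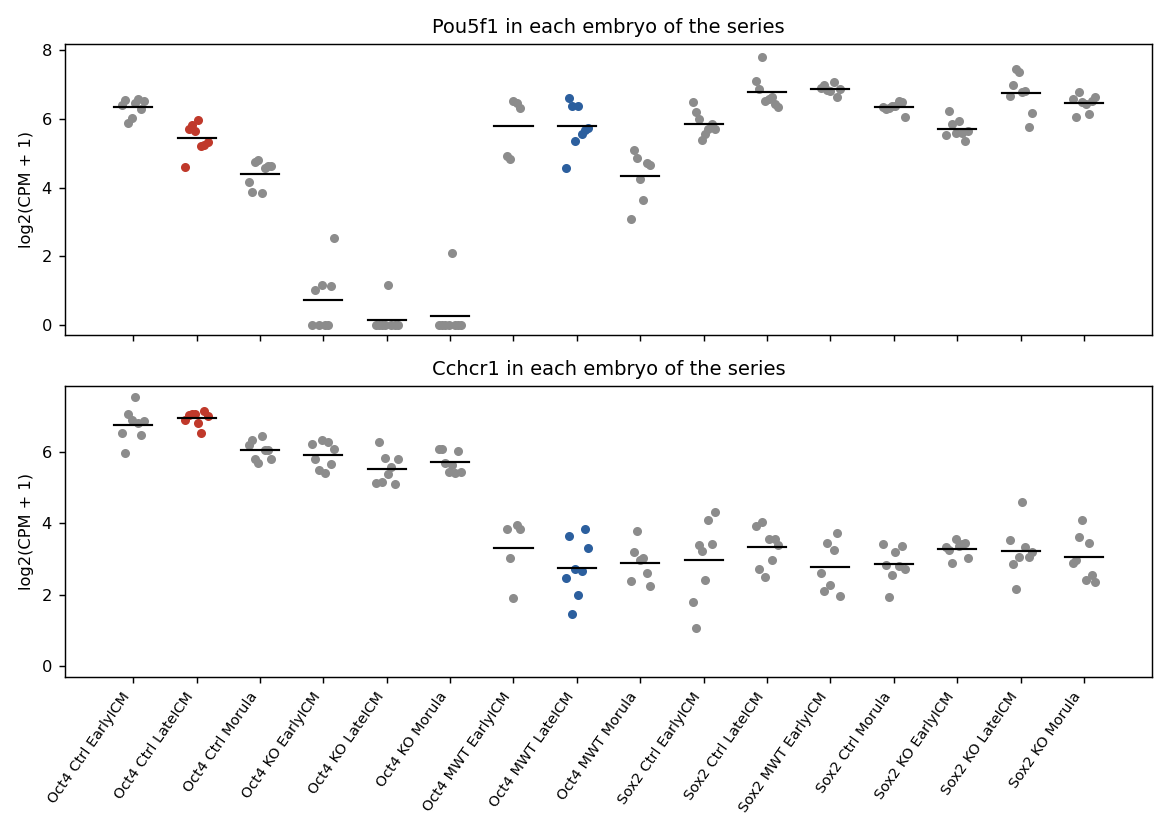
Pou5f1 (top) and Cchcr1 (bottom) as log2(CPM + 1) in each embryo of the 16 groups, with the group mean as a line. Ctrl late ICMs (red) and MWT late ICMs (blue) overlap in Pou5f1, and in Cchcr1 the Ctrl and KO embryos of the Oct4 line (33.4 to 185 CPM) stand above the remaining groups (1.11 to 23.1 CPM).

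Beside the locus, 1 further gene was called higher in Ctrl. Psors1c2, a small gene expressed in skin, begins 27.2 kb from the start of Pou5f1, on the same strand and just past Cchcr1. It had 45 UMIs in 7 of 8 Ctrl embryos together and 3 UMIs in 2 of 8 MWT embryos, a ratio of 14.9 per UMI sequenced (exact Poisson interval 4.79 to 75.1, counting error only). Its fitted log2 fold change was 3.69 ± 0.69 (adjusted p = 0.000519). DESeq2 gave it 3.93 with no adjusted p. Unlike Cchcr1, it was low in Oct4-KO ICMs, which carry the same deleted maternal allele. Their means were 1.02 CPM in late and 1 CPM in early ICMs, against 8.73 in Ctrl and 0.559 in MWT late ICMs. In early ICMs the log2 fold change of Psors1c2 was 3.05 (edgeR, adjusted p = 0.102). Tcf19, which lies between Pou5f1 and Cchcr1 on the other strand, had 0 to 5.57 CPM in Ctrl and 1.48 to 10.7 in MWT (-1.25 ± 0.57, adjusted p = 0.286).

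Few other genes of the region were called. Within 5 Mb of Pou5f1, 169 genes were tested, with 2 called higher, 1 called lower (Hspa1b) and a median of -0.01. Within 100 kb 9 genes were tested, and Cchcr1 and Psors1c2 were the 2 called. Chromosome 17 held 5 of the 73 genes called higher and 3 of the 38 called lower, together 1.14% of the 702 genes tested on it, against 0.797% over all genes.

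**Figure D3:**
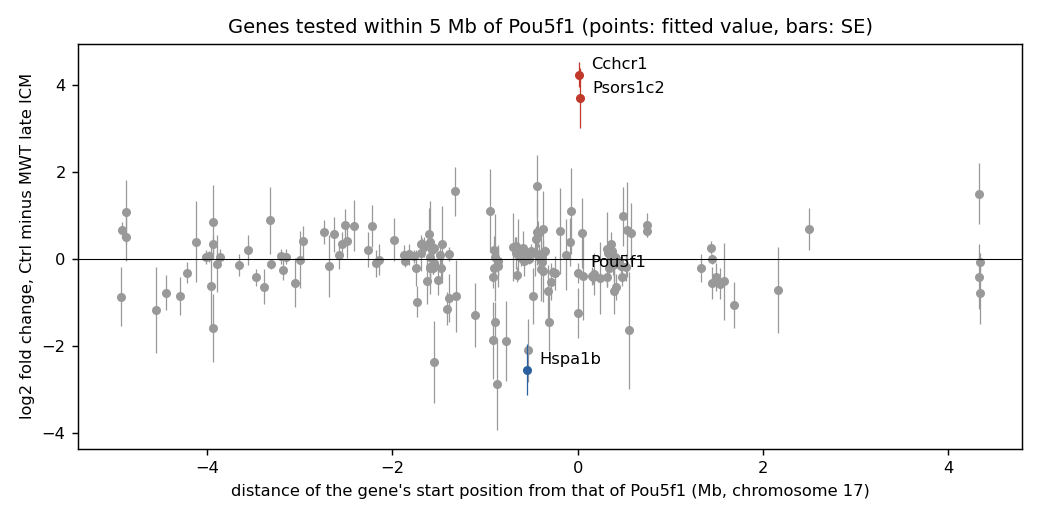
Log2 fold change with its SE (Ctrl minus MWT late ICM) of the genes tested within 5 Mb of Pou5f1, against the distance between gene start positions in Mb; 1 gene without an SE is not drawn. Cchcr1 (4.24) and Psors1c2 (3.69) stand above the region just downstream of Pou5f1 (-0.32), and Hspa1b (-2.55) is the called gene that is lower.

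Of the gene lists, which were chosen with earlier results of these data known, that of primitive endoderm held the most calls. Of 25 tested, 7 were called higher in Ctrl and none lower, 21 had a positive log2 fold change, and the median was 0.91, against 0.524% called higher and a median of -0.01 over all genes. In early ICMs the same 25 genes had a median of 0.00. The 7 are the transcription factors Sox17, Foxq1 and Gata4, the basement membrane genes Lama1, Col4a1 and Col4a2, and Serpinh1, the chaperone that folds collagen. Col4a1 and Col4a2 overlap each other head to head, and Sox17 and Foxq1 each overlap a gene on the other strand.

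Sox17, which fixes the primitive endoderm fate, showed how uneven this group was. The 8 Ctrl embryos had 1.38, 11.1 and 384 CPM and the 8 MWT embryos 0, 1.69 and 5.94 (lowest, median, highest). Ctrl 1-9, 2-9 and 1-3 had 384, 123 and 90.3 CPM, Ctrl 1-4 had 18.4, and the other 4 Ctrl embryos were at 3.80 or less, within the MWT range. The UMI sums were 462 and 10, a ratio of 46.0 (exact Poisson interval 24.8 to 96.5), and the fitted log2 fold change was 5.42 ± 0.94 (SE, adjusted p = 0.000208).

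Gata4 and Foxq1 were found in the same 3 Ctrl embryos and in no other Ctrl embryo. Gata4, which activates laminin and collagen genes in this lineage, was at 68.3, 41.5 and 20.5 CPM in Ctrl 1-9, 2-9 and 1-3, without a UMI in the other 5, and at up to 5.59 CPM in 3 MWT embryos. Its sums were 97 against 8 UMIs, a ratio of 12.1 (exact Poisson interval 5.89 to 28.7). The fitted log2 fold change was 3.50 ± 0.93 (adjusted p = 0.0269), and the call was lost without any one of 6 embryos in turn. Foxq1, a forkhead factor, had 18.7, 73.6 and 20.5 CPM in those 3 embryos and 2 UMIs in 1 MWT embryo (4.90 ± 1.08, adjusted p = 0.00451), and was not called without Ctrl 2-9.

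The matrix genes were higher in these 3 embryos too, but not in them alone. Lama1, the laminin alpha chain of embryonic basement membranes, was at 20.9, 67.9 and 335 CPM in Ctrl and 0, 13.7 and 34.5 in MWT. Of the 8 Ctrl embryos, 7 lay above every MWT embryo (3.09 ± 0.64, adjusted p = 0.00202). Serpinh1 was at 3.80 to 497 CPM against 1.5 to 48.0 (2.90 ± 0.60, adjusted p = 0.00202), and without Ctrl 1-9 it was 2.07 with an adjusted p of 0.0616. Col4a1 and Col4a2, the chains of type IV collagen, were higher by 1.48 ± 0.28 (adjusted p = 0.000595) and 1.29 ± 0.32 (adjusted p = 0.0164). Their ranges overlapped, with 4 of 8 Ctrl embryos above every MWT embryo in each, and Col4a2 was not called without Ctrl 1-9 (0.89, adjusted p = 0.168). When only these 16 embryos were fitted, 4 of the 7 lost their calls, with adjusted p of 0.0919 for Foxq1, 0.159 for Gata4, 0.104 for Col4a1 and 0.175 for Col4a2.

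The other 18 genes of the lineage were not called by edgeR, while DESeq2 called 8 of the 25, all higher in Ctrl. Gata6, the factor that acts first, was at 100, 146 and 359 CPM in Ctrl and 11.6, 80.0 and 311 in MWT (0.75 ± 0.30, adjusted p = 0.196). Pdgfra, a receptor that marks primitive endoderm precursors, was at 0 to 43.4 against 0 to 15.7 CPM (2.06 ± 0.65, adjusted p = 0.0865). Dab2, an endocytic adaptor, had 39.0 to 261 against 2.24 to 152 CPM (1.33 ± 0.41, adjusted p = 0.0721), and Sparc, a matrix protein, had 175 to 770 against 78.2 to 309 (0.78 ± 0.34, adjusted p = 0.247). The 4 members with a negative log2 fold change were Cited1 (-1.44, means of 6.97 CPM in Ctrl and 20.7 in MWT, adjusted p = 0.153), Bmp2 (found in 1 MWT embryo alone, at 1.73 CPM), Hnf4a (-0.63, 21.8 against 35 CPM, adjusted p = 0.391) and Nid2 (-0.10). Hnf4a is a factor of later endoderm and Cited1 a transcriptional co-regulator. Sox7, Foxa2, Rspo3 and Tfec did not pass the detection filter.

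Without Ctrl 1-3, 1-9 and 2-9 none of the 25 primitive endoderm genes was called in edgeR, 4 were higher and 1 lower at an unadjusted p under 0.05, and their median was 0.42. Gata4 and Foxq1 had no UMI in the 5 remaining Ctrl embryos, so the choice of embryos fixed the sign of their fitted values. Sox17, in which the 3 embryos were also the highest, went from 5.42 to 1.54 (adjusted p = 0.696) and Lama1 from 3.09 to 1.77 (adjusted p = 0.24). Serpinh1, Col4a1 and Col4a2 were at 1.34, 0.80 and 0.58, with adjusted p of 0.399, 0.197 and 0.54. The number of genes called over the whole comparison went from 111 to 49, of which 38 were among the 111. The 3 embryos were not apart in every gene, since Ctrl 1-4 had more Gata6 (359 CPM), Pdgfra (43.4) and Col4a1 (205) than Ctrl 1-3. The summed level of 16 primitive endoderm markers was 884, 1360 and 3380 CPM in Ctrl and 747, 813 and 1120 in MWT, with Foxa2 absent from MWT. In the same embryos the summed level of 10 epiblast markers was 2860 to 4550 CPM in Ctrl and 2730 to 4790 in MWT.

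Of the FGF-ERK genes, 3 were called. They were among 18 feedback inhibitors and immediate early genes tested, with none called lower, against 0.524% called higher over all genes. Of the 18, 17 had a positive log2 fold change, several of them close to 0, and the median was 0.90. In early ICMs the median of the same genes was 0.43. The called genes were Spry2, Egr1 and Phlda1, and 2 of them, Spry2 and Egr1, were called without Ctrl 1-3, 1-9 and 2-9, where the list median was 0.74. All of these ICMs had been cultured with the MEK inhibitor, so the levels are those under inhibition.

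Spry2 (chromosome 14, 105891947 to 105896819, minus strand), an inhibitor of receptor tyrosine kinase signalling that ERK activity induces, separated the groups. The 8 Ctrl embryos had 117, 185 and 347 CPM and the 8 MWT embryos 74.6, 96.8 and 105 (lowest, median, highest). There was no overlap, and the log2 fold change was 1.08 ± 0.21 (SE, adjusted p = 0.000723). Without Ctrl 1-4, the highest embryo, it was 0.91, below the 2-fold minimum. All 8 Ctrl embryos above all 8 MWT embryos was seen in 4 of the 13,923 genes (0.0287%), Cchcr1, Spry2, Ddah1 and Capn6, and the reverse in 12 (0.0862%).

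Egr1 (chromosome 18), an immediate early transcription factor, was at 78.0, 216 and 531 CPM in Ctrl and 16.5, 72.5 and 149 in MWT. The log2 fold change was 1.92 ± 0.35 (SE, adjusted p = 0.000329), and 5 of 8 Ctrl embryos lay above every MWT embryo. The 3 Ctrl embryos of the second label set had 262 to 531 CPM and the 5 of the first set 78.0 to 246. Phlda1, an inhibitor of AKT signalling induced by growth factors, was at 23.4, 36.4 and 100 CPM in Ctrl and 4.97, 11.2 and 32.0 in MWT (1.79 ± 0.40, adjusted p = 0.00489). Without Ctrl 1-3, 1-9 and 2-9 Phlda1 was at 1.32 and not called (adjusted p = 0.152).

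The other 15 FGF-ERK genes were not called. Etv1, an ETS factor that FGF signalling induces, had the largest fold of the list, with means of 8.91 CPM in Ctrl and 1.87 in MWT (2.25, adjusted p = 0.0985). Spry1, a further Sprouty inhibitor, was at means of 16.4 and 7 CPM (1.35, adjusted p = 0.104). Dusp6, the phosphatase that acts on ERK, was at 16.1 to 54.5 CPM in Ctrl and 2.97 to 67.9 in MWT (0.44 ± 0.45, adjusted p = 0.736). Fos had 56.8 to 208 against 28.5 to 183 CPM (0.99 ± 0.34, adjusted p = 0.116). Spry4 and Spred1, relatives of Spry2, had log2 fold changes of 1.24 and 1.04 with adjusted p of 0.249 and 0.279. Dusp4, Myc and Spred2 had 1.48, 0.81 and 0.32, with adjusted p of 0.498, 0.559 and 0.467. Junb, Ier3, Ccnd1, Fosl1, Dusp5 and Ier2 lay between -0.08 (Ier2) and 0.29 (Junb), with adjusted p of 0.773 or more.

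**Figure D4:**
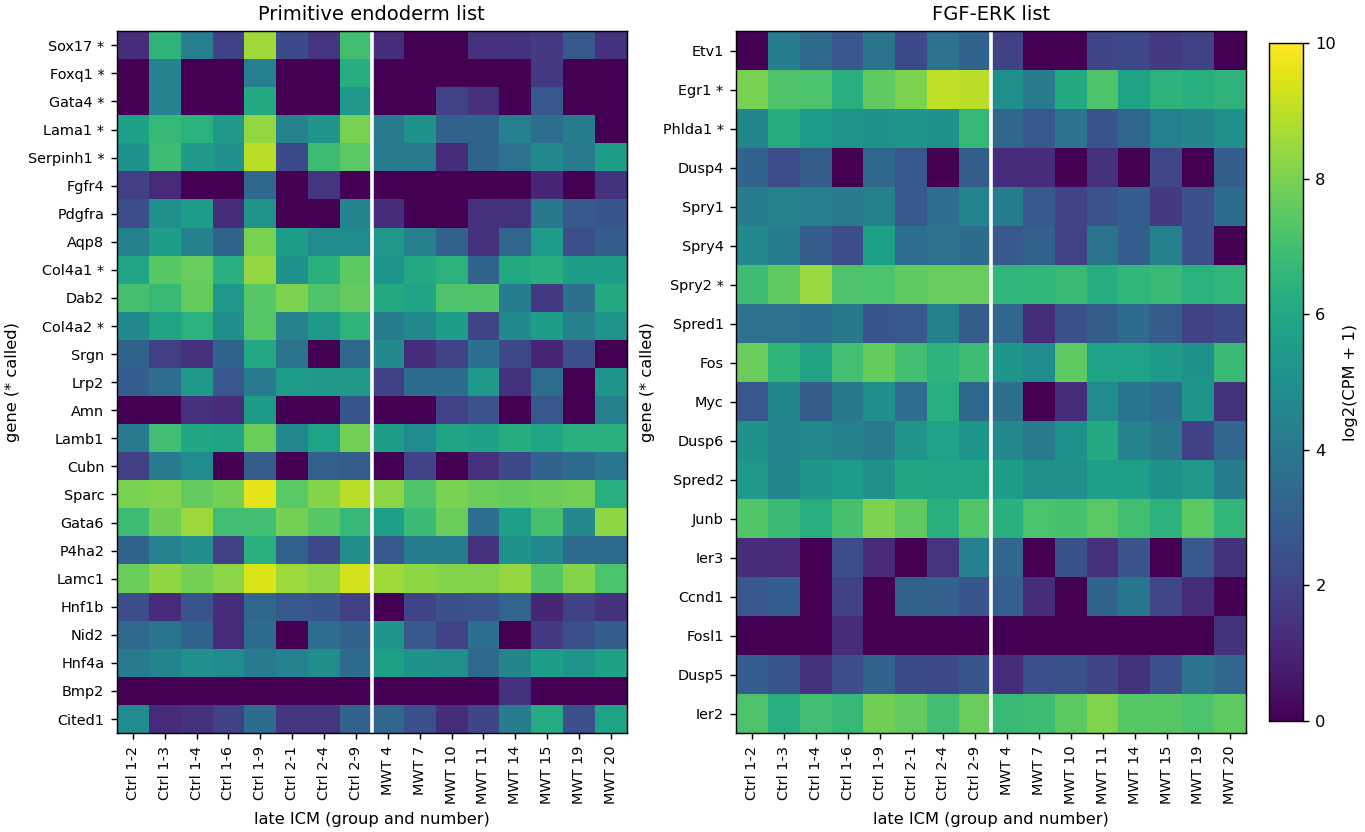
Level as log2(CPM + 1) of the 25 primitive endoderm genes (left) and the 18 FGF-ERK genes (right) in each of the 16 late ICMs, Ctrl left and MWT right of the white line, ordered by log2 fold change with called genes starred. Sox17, Foxq1 and Gata4 are bright in Ctrl 1-3, 1-9 and 2-9, whereas Egr1, Phlda1 and Spry2 are higher over most Ctrl embryos.

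Trophectoderm genes mark the outer cells that immunosurgery removes. Of 31 tested, edgeR called 1, lower in Ctrl, against 0.273% called lower over all genes. DESeq2 called 2 higher and 1 lower, and the median was 0.14. Hand1, a basic helix-loop-helix factor of trophoblast and later mesoderm, was at 0, 8.11 and 34.8 CPM in Ctrl and 5.94, 88.5 and 311 in MWT. The log2 fold change was -2.93 ± 0.59 (SE, adjusted p = 0.00123), and 4 of 8 Ctrl embryos lay below every MWT embryo. Without Ctrl 1-3, 1-9 and 2-9 it was -2.45 with an adjusted p of 0.0518. Oct4-KO late ICMs had 80.9 ± 75.6 CPM (n = 8). Ctrl and MWT early ICMs had means of 82.2 and 98.4 CPM, and Ctrl and MWT late ICMs 13.8 and 107. The summed level of 12 trophectoderm markers was 160, 632 and 1000 CPM in Ctrl and 204, 651 and 2300 in MWT, and the highest, MWT 11, had 6.63 CPM of Hand1. Cdx2, the factor that defines trophectoderm, was at 6.69 to 14.5 CPM in Ctrl and 0 to 10.7 in MWT (1.83 ± 0.58, adjusted p = 0.0891). None of the 12 markers was without a UMI in either group.

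Among Wnt, Nodal and BMP genes, 1 of 21 was called, against 0.797% over all genes, and the median was 0.02. Smad3, which carries Nodal and activin signals to the nucleus, was at 4.01, 9.58 and 17.4 CPM in Ctrl and 15, 24.5 and 32.4 in MWT. It was lower in Ctrl by -1.21 ± 0.34 on the log2 scale (adjusted p = 0.0372), with 7 of 8 Ctrl embryos below every MWT embryo. It lost its call without any one of 8 embryos in turn, and without Ctrl 1-3, 1-9 and 2-9 it was -1.44 (adjusted p = 0.0613). Lefty1, a secreted Nodal inhibitor of the formative and later epiblast list (1 of 11 called, median -0.30), had no UMI in Ctrl and 17 UMIs in 2 MWT embryos, nearly all in MWT 11 (26.5 CPM), at least 5.7-fold lower in Ctrl against a floor of 3 UMIs over the group. It lost its call in DESeq2 and without any one of 7 embryos in turn, with an adjusted p of 0.690 without MWT 11 and of 0.15 without Ctrl 1-3, 1-9 and 2-9.

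Stress genes showed 1 called member of 25, against 0.797% over all genes, with a median of -0.05. Hspa1b, an inducible Hsp70 chaperone on chromosome 17 (34956436 to 34959238, minus strand), was at 1.37, 6.21 and 19 CPM in Ctrl and 1.78, 40.9 and 123 in MWT. The groups overlapped through 1 embryo, MWT 20, which also had the lowest stage score, and the other 7 MWT embryos, at 21 CPM or more, lay above every Ctrl embryo. The log2 fold change was -2.55 ± 0.58 (SE, adjusted p = 0.00636), and -2.46 without Ctrl 1-3, 1-9 and 2-9 (adjusted p = 0.0617). Its near-identical neighbour Hspa1a was at 0 to 8.03 against 0 to 26.6 CPM (-2.11 ± 0.72, adjusted p = 0.114), and reads of the pair may have been split between them, so each value is uncertain. Oct4-KO late ICMs had a mean of 5.71 CPM of Hspa1b, and Ctrl and MWT early ICMs had 4.22 and 6.3. The 5 Ctrl embryos of the first label set had 1.37 to 8.25 CPM and the 3 of the second 14.5 to 19, all but 1 MWT embryo lying above both. Other chaperones had smaller values that were not called, -0.43 for Hsph1, -0.35 for Dnajb1 and -0.22 for Hspa8.

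Outside the lists, both metallothionein genes were higher in Ctrl. Mt1 and Mt2, small proteins that bind zinc and copper, lie side by side on chromosome 8 and were looked at after their values were seen. Mt1 was at 836, 3990 and 5640 CPM in Ctrl and 370, 662 and 4120 in MWT, and Mt2 at 749, 3050 and 4440 against 334, 506 and 2920. Mt1 was higher by 1.68 ± 0.34 (SE, adjusted p = 0.00158) and Mt2 by 1.68 ± 0.33 (adjusted p = 0.000888) on the log2 scale. Of the Ctrl embryos 6 lay at 2710 CPM of Mt1 or more and 2, Ctrl 2-4 and 2-9, at 836 and 1040, among the MWT embryos, of which MWT 10 and 4 were at 4120 and 1870. In early ICMs Mt1 and Mt2 had log2 fold changes of -0.36 and -0.48, and the late minus early differences of 2.04 and 2.16 had adjusted p of 0.0899 and 0.0770. Slc30a1, a zinc exporter that zinc induces, had 71.1 to 135 against 46 to 95 CPM (0.52 ± 0.24, adjusted p = 0.308).

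The promoters of these genes are shown because the metallothionein pair moved together and carries a known kind of element. The metal response element, bound by the factor MTF1, has the core TGCACNC or TGCGCNC, and the heat shock element is written here as GAANNTTC. The windows run from 250 bases before to 50 after the RefSeq start (GRCm38.p6), chr8:94178839-94179138 plus strand for Mt1, chr8:94172368-94172667 plus strand for Mt2 and chr17:34959189-34959488 minus strand for Hspa1b, and capitals mark matches on either strand.
Mt1: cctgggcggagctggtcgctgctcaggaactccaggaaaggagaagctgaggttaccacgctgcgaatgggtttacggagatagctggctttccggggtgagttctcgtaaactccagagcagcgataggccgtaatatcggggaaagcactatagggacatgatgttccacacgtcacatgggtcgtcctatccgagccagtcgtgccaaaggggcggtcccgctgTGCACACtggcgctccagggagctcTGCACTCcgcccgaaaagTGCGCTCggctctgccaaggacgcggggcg
Mt2: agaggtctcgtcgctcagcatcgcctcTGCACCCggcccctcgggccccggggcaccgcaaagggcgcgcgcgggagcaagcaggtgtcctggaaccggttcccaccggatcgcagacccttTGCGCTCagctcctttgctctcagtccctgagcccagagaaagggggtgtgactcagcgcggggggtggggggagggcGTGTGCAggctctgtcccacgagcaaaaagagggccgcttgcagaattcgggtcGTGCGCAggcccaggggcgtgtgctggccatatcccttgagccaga
Hspa1b: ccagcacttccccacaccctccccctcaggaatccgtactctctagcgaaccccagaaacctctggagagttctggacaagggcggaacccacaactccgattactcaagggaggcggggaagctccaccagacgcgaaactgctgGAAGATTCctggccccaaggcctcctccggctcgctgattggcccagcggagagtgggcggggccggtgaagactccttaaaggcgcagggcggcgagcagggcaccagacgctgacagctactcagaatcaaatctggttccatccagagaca
Mt1 held 3 and Mt2 4 matches of the metal response core, no 2 of them overlapping, while 25.7% of 32,851 promoters held 1 or more, 1.97% held 3 or more and 0.517% held 4 or more. Hspa1b held 1 match of the heat shock element, as 7.86% of promoters did at least once. A match describes the letters and was not tested for binding.

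Among other genes, 11 higher and 8 lower ones passed the rule for naming, which asked for a mean of 20 CPM or more in one of the groups and for 7 or more of 8 embryos of each group on their own side of the midpoint between the group medians. Ddah1, which breaks down methylated arginine, was at 200 to 472 CPM in Ctrl and 83.8 to 158 in MWT with no overlap (1.23 ± 0.25, adjusted p = 0.00122). Vnn1, a pantetheinase that releases a coenzyme A precursor, was at 115, 323 and 522 against 36.5, 101 and 206 CPM (1.80 ± 0.35, adjusted p = 0.000838). Zfp36l1, a factor that shortens the life of AU-rich messenger RNAs, was at 125 to 213 against 24.1 to 128 CPM (1.22 ± 0.29, adjusted p = 0.00995). Mme, a membrane peptidase, was higher by 2.25 ± 0.55, and Ccn2, a matricellular growth factor, by 1.26 ± 0.34. Etv3, an ETS repressor, was higher by 1.13, Sprtn, a protease of DNA repair, by 1.09 and Wdr76 by 1.45. Cchcr1, Phlda1 and Spry2 complete the 11. Ccn2 lost its call without any one of 8 embryos in turn, and Sprtn without MWT 20, where it was 0.97. Without Ctrl 1-3, 1-9 and 2-9 Mme, Ccn2, Ddah1 and Etv3 were at 2.21, 1.25, 0.98 and 1.15 and no longer called, with adjusted p of 0.0518, 0.0971, 0.0524 and 0.0524. Capn6, a calpain without protease activity on the X chromosome, did not pass the midpoint rule but did not overlap either (21.8 to 97.6 against 0 to 14.8 CPM, 3.10 ± 0.60, adjusted p = 0.000838).

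Among the 8 lower genes that passed this rule, Castor1 had the largest fold difference. It encodes the arginine sensor that holds mTORC1 in check, and was at 12.4, 24.3 and 49.5 CPM in Ctrl and 60.1, 70.1 and 186 in MWT. The groups did not overlap, with a log2 fold change of -1.68 ± 0.28 (SE, adjusted p = 9.93e-05). The second label set of Ctrl, at 32.7 to 49.5 CPM, lay nearer to MWT than the first, at 12.4 to 25.4. Atg7, an enzyme of autophagosome formation, was at 10.9 to 30.4 against 39.1 to 74.3 CPM (-1.26 ± 0.29, adjusted p = 0.00724), and Bok, a Bcl-2 family member, at 12.3 to 37.6 against 42.0 to 84.7 (-1.06 ± 0.28, adjusted p = 0.0275), both without overlap. Itpr3, a calcium channel of the endoplasmic reticulum, Rab3il1, an exchange factor for Rab proteins, Hvcn1, a proton channel, and Tpst1, which sulphates tyrosines, were lower by -1.40, -1.17, -1.02 and -1 (adjusted p 0.0161, 0.00712, 0.0201 and 0.0365). Smad3 is the eighth. Early ICM means of Ctrl and MWT, picked here after their values were seen, were 50.6 and 86.2 CPM for Castor1 and 50.7 and 57.5 for Atg7. They were 43 and 48.2 for Bok and 16.2 and 14.6 for Smad3. With each embryo left out in turn, Tpst1 lost its call without any one of 10 of the 16, Hvcn1 and Bok without any one of 6 and Itpr3 without either of 2. Without Ctrl 1-3, 1-9 and 2-9 Atg7 and Bok were at -1.28 and -0.96 (adjusted p 0.0518 and 0.153), and Itpr3, Rab3il1 and Tpst1 at -1.39, -1.03 and -0.66 (adjusted p 0.086, 0.0967 and 0.35), none of them called. The mitochondrial transfer RNA gene mt-Tt, named after its values were seen, was at 16.4 to 61.8 CPM in Ctrl and 66.2 to 209 in MWT (-1.92 ± 0.30, adjusted p = 1.41e-05).

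**Figure D5:**
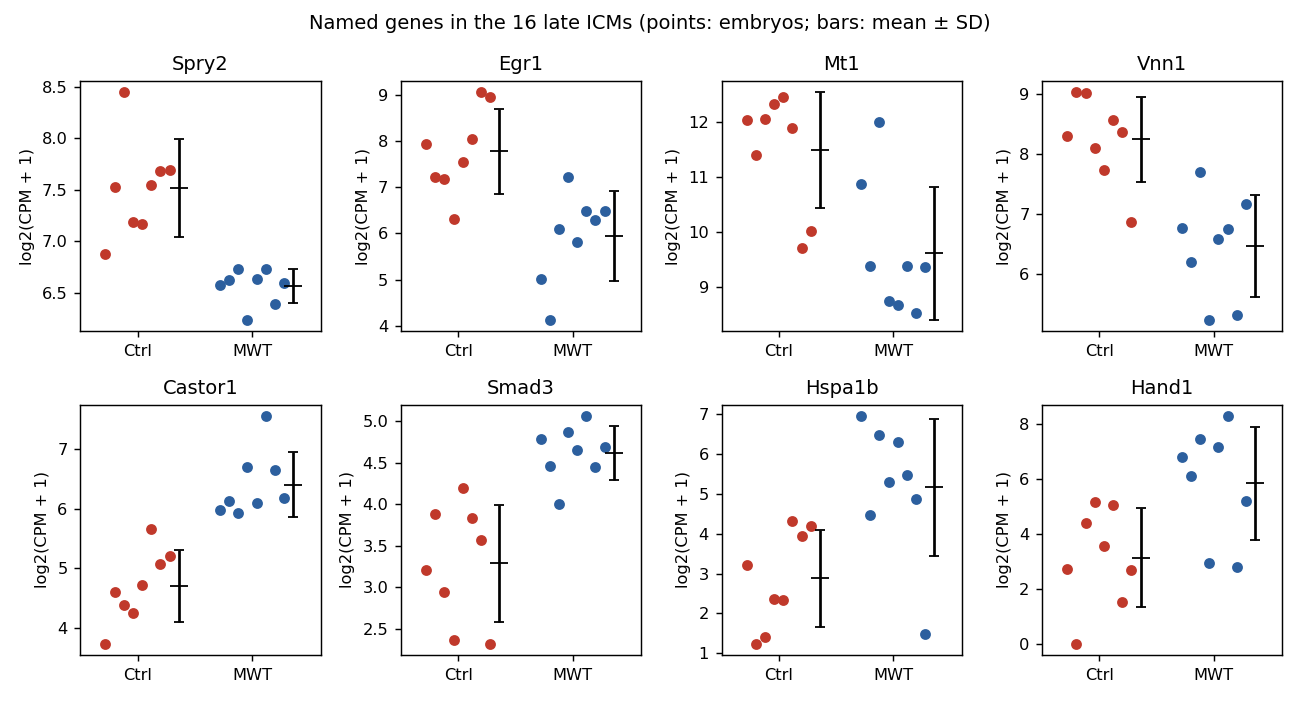
Level as log2(CPM + 1) of 8 named genes in each Ctrl (red) and MWT (blue) late ICM, with mean ± SD beside the points; each panel has its own axis, which does not start at 0. Spry2 and Castor1 do not overlap between the groups, Mt1 splits within both groups, and Hspa1b overlaps through 1 MWT embryo.

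Some ribosomal protein genes were slightly higher in Ctrl, a group taken after its values were seen. None of 82 was called with the 2-fold minimum in edgeR or DESeq2, but at the adjusted p alone 26 were higher and none lower, 75 had a positive log2 fold change and the median was 0.26. Over all genes 151 were higher (1.08%) and 69 lower (0.496%) at the adjusted p alone. Rps19, for example, was at 2380, 2540 and 3250 CPM in Ctrl and 1600, 2040 and 2520 in MWT (0.48 ± 0.09, adjusted p = 0.000498). With scaling by total UMIs alone 17 were higher with a median of 0.18. The 5 Ctrl embryos of the first label set gave a median of 0.39 with 48 higher, and the 3 of the second set a median of 0.00 with none higher by edgeR. The 26 became 1 when only these 16 embryos were fitted, 17 without MWT 4, 15 without Ctrl 1-2 or 1-3, 12 without Ctrl 1-9 and 7 without Ctrl 1-3, 1-9 and 2-9.

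Several lists held no gene called by edgeR, and at an unadjusted p under 0.05 each held 6 or fewer. These were 28 oocyte and maternal-effect genes (median -0.04), 35 imprinted genes (-0.14), 21 glycolysis genes (-0.13), 26 genes of cholesterol and fatty acid synthesis (0.04), 21 p53 targets and apoptosis genes (0.13), 29 cell cycle regulators (-0.06), 8 metabolic genes named in the study (0.32), 8 OCT family genes (-0.72) and 4 Y-linked genes (0.71). DESeq2 called 1 p53 or apoptosis gene, higher in Ctrl, and none of the other lists. Of the OCT family, which could share sites with Oct4, 1 of 8 had a positive log2 fold change, and Pou2f3 was at 0 to 13.4 CPM in Ctrl and 0 to 39.7 in MWT (-1.27 ± 0.43, adjusted p = 0.105).

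Genes that depend on Oct4 in early ICMs were then followed. Of 858 genes lower in Oct4-KO than Ctrl early ICMs (6.16% of genes tested), 11 were higher (1.28%) and 2 lower (0.233%) in Ctrl than MWT late ICMs, against 0.524% and 0.273% of all genes, with a median log2 fold change of -0.03 against -0.01. Of 649 genes higher in Oct4-KO early ICMs (4.66%), 6 were higher (0.924%) and 3 lower (0.462%), with a median of -0.11. Sox17 and Egr1 are among the former, and Mt1, Mt2, Col4a2 and Hand1 among the latter.

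The same comparison in early ICMs, 8 Ctrl against 5 MWT embryos, called 52 genes (0.373%), 26 higher and 26 lower (0.187% each). Of these, 4 were called in late ICMs in the same direction, 3.6% of the late and 7.69% of the early calls, and none in the opposite direction. They were Cchcr1, Ccn2, with 2.46 in early and 1.26 in late ICMs, Ccn1, with 2.29 and 1.46, and Ppm1k, with 1.51 and 1.03, the last 2 named after their values were seen. The difference between the stages was itself called for 1 gene (0.00718%), with 1127 genes at an unadjusted p under 0.05 in edgeR. Gm28438, named after its values were seen, was at 0 to 12.5 CPM in Ctrl and 0 to 1.5 in MWT late ICMs, with a late minus early difference of 4.97 on the log2 scale (adjusted p = 0.0307). The late differences of Egr1 and Sox17 against early ICMs, 1.54 and 6.05, had adjusted p of 0.477 and 0.0770, so a difference between the stages was not shown for them.

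Some named genes are set beside Oct4-KO late ICMs, picked after their values were seen and with no test. Egr1 was at 78.1 ± 40.6 CPM in KO (mean ± SD, n = 8), 261 ± 166 in Ctrl and 71.8 ± 40.7 in MWT. Spry2 was at 103 ± 22.2, 192 ± 70.5 and 94.4 ± 10.6 in the same order, and Sox17 at 0.725 ± 2.05, 78.2 ± 132 and 1.85 ± 1.85. In these 3 genes the KO mean lay nearer to MWT. Vnn1 at 267 ± 58.7, 333 ± 141 and 101 ± 55.7, Ddah1 at 353 ± 85.5, 289 ± 104 and 132 ± 28.0 and Dnmt3l at 83.2 ± 23.6, 99.3 ± 58.5 and 34.5 ± 11.6 had KO means nearer to Ctrl. KO and Ctrl embryos share their mothers' genotype, and MWT embryos do not.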

How the data were processed

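RNA of single ICMs was sequenced with molecular identifiers. The authors trimmed reads with Cutadapt, aligned them to mm10 with TopHat2, assigned them to GENCODE vM23 genes with featureCounts and counted unique molecules with UMI-tools and TRUmiCount, and they deposited the counts as whole numbers per gene, not normalized. The strand setting of the counting is not given in the sources used here, so overlapping genes on opposite strands could not be told apart. The authors also deposited log2 values made by the rlog transform of DESeq2, used here only in an alternative.

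A gene entered when a share of 0.5 or more of any stage's embryos had a UMI of it (13,923 of 29,022 genes), and counts were fitted with edgeR 4.0.16 (R 4.3.3; TMM scaling, quasi-likelihood test, Benjamini-Hochberg adjustment) over all 16 groups and 123 embryos, which share 1 estimate of spread. SEs were derived from the test statistic. Named genes were Pou5f1, Sox2 and Nanog, called members of the lists, called genes near Pou5f1, and called genes of at least 20 CPM with at least 7 of 8 embryos of each group on their own side of the midpoint. Others are said to have been named after their values were seen. The members and lists were chosen with earlier results of these data known. Alternatives used DESeq2 1.42.0, limma 3.58.1 on rlog values, other scalings and filters, thinned counts, label sets and left-out embryos. The pipeline was tested on simulated data.

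Embryos were taken as separate samples, and no 2 of a group had counts within sampling noise of each other. Intervals on UMI sums are exact Poisson with a level of 95% and cover counting error only. Promoters are RefSeq windows of GRCm38.p6. Where title and source name of the MWT embryos differed in stage, the title was used.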

Additional observations from a re-analysis of the deposited data

Results flagged for a closer look

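Of 86 group values examined, 14 had 1 embryo set far from the other 7, with a gap to the next beyond Dixon's 95% limit for 8 values. Chance gives this in about 1 in 20 groups only for normally distributed values. Most of these are skewed CPM values, some mostly zeros, of genes largely named because they were called. That rate therefore does not apply here. In Ctrl these were Sox17 at 384 CPM in Ctrl 1-9 (next 123), Serpinh1 at 497 in Ctrl 1-9 (next 171), Foxq1 at 73.6 in Ctrl 2-9 (next 20.5), Dnmt3l at 223 in Ctrl 2-9 (next 117) and Spry2 at 347 in Ctrl 1-4 (next 206). In MWT they were Ccn2 at 564 CPM in MWT 10 (next 186), Castor1 at 186 in MWT 15 (next 103), Atg7 at 74.3 in MWT 14 (next 47.3), Itpr3 at 47 in MWT 15 (next 23.7), Lefty1 at 26.5 in MWT 11 (next 1.12), Mme at 25.2 in MWT 4 (next 6.63), Sox17 at 5.94 in MWT 19 (next 2.24) and Foxq1 at 2.24 in MWT 15 (next 0). The library of MWT 15 was also the deepest, at 894,465 UMIs (next 675,883).

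Gm28438, an unprocessed pseudogene on chromosome 1, was the gene whose Ctrl minus MWT difference changed between early and late ICMs, by 4.97 on the log2 scale (adjusted p = 0.0307, edgeR). It rests on 29 UMIs in Ctrl and 1 in MWT late ICMs, a ratio of 28.9 (exact Poisson interval 4.78 to 1180).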

How the results depend on the processing

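No paired analysis was possible because the groups compared share no replicate number in late ICMs, and none was made in early ICMs. The 111 genes called became 220 with no fold-change minimum, 37 with only the groups compared in the fit, 68 with limma on rlog values, 198 with the first Ctrl label set, 23 with the second and 49 without Ctrl 1-3, 1-9 and 2-9 (added after seeing the data). They were 119 with DESeq2, of which 94 were shared, and 77 to 142 when each embryo was left out in turn. Of the calls 65.8% were higher in Ctrl (73 and 38), against 54.2% with scaling by total UMIs alone (65 and 55). Primitive endoderm calls, 7 in all, became 3 with only the groups compared, 2 with the second label set, 0 without the 3 embryos and 4 to 8 with 1 embryo left out, the lowest without Ctrl 1-9. FGF-ERK calls were 2 to 4 throughout. The stage difference, 1 gene, became 15 with DESeq2, 10 with all genes, 0 with a 5 CPM minimum, with only the groups compared, with thinned counts, with limma and with the second label set, 44 with the first label set and 2 without the 3 embryos. It was 0 to 16 with 1 embryo left out, the highest without Ctrl 2-9. Without the 3 embryos, the only Ctrl embryos with a UMI of either gene, the fitted values of Foxq1 and Gata4 were -1.8 and -3.44, a sign fixed by that choice, and 10 of 33 called named genes were still called. The second label set alone, with 3 embryos, kept 10. With only the groups compared in the fit 12 of the 33 were lost, Mme, Sprtn and Col4a1 among them, and with limma on rlog values 13, Spry2 and Etv3 among them. With each embryo left out in turn 19 of the 33 were called throughout, and the other 14 were lost at least once. The cause of these shifts was not tested, beyond the fewer embryos that the label-set and left-out fits hold. Depth of 525,755 to 894,465 UMIs limits genes of a few CPM, where 1 embryo can decide a call.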

Other observations

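Some of the genes that were higher or lower in Ctrl also stood apart between the label sets of Ctrl, picked here after their values were seen and with no test. Ccn2 was at 200 to 477 CPM in the 5 embryos of the first set and 543 to 614 in the 3 of the second, and Itpr3, the calcium channel, at 1.38 to 6.7 and 9.36 to 18.2. Ddah1 was at 200 to 472 in the first and 217 to 229 in the second, within the range of the first. Cchcr1, at 111 to 134 and 91.3 to 142, overlapped.

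In Oct4-KO late ICMs Mt1 was at 7050 ± 1980 CPM (mean ± SD, n = 8), above the means of Ctrl (3460 ± 1780) and MWT (1150 ± 1300), and Capn6 at 118 ± 62.7, against 48.8 ± 26.2 and 6.05 ± 4.84. Bok, Rab3il1 and Atg7 had KO means of 57.7, 111 and 41.7 CPM, near those of MWT (56.3, 110 and 47.9) and above Ctrl (25.7, 47.6 and 18.8). Mme, by contrast, was at 0.307 ± 0.569 CPM in KO, below both. No test was made of these differences.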
